A study of Rattus norvegicus with 29 samples.

Results

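Plasma microRNAs (miRNAs) of rats with a brain injury that did not lead to epilepsy were compared with those of sham-operated rats. The injured rats were all those labelled TBIN, for traumatic brain injury (TBI) with no epilepsy, and the controls were all those labelled sham. They made up 20 of the 29 rats with deposited counts, 10 in each group, and site entered every main fit as a covariate. UEF in Finland contributed 4 sham and 4 TBIN rats, and Monash in Australia and UCLA in the USA each contributed 3 and 3. The other 9 rats, labelled TBIE, were injured and later had epilepsy.

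All were adult male Sprague-Dawley rats bled from the tail vein into K2EDTA tubes 48 h after surgery under isoflurane. TBIN and TBIE rats received lateral fluid-percussion injury, a pressure pulse delivered onto the exposed dura, while sham rats had the same surgery without the pulse. A rat was placed in TBIN when long video-EEG recording months later showed no seizures, so at the time of sampling the injured rats had not yet been told apart. Vendors, food and housing before surgery differed between sites, and UCLA gave medicated chow after injury, so each site differed from the others in more than place. The comparison asks which plasma miRNAs differ from those of sham rats after an injury that was not followed by epilepsy.

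miRNAs are short RNAs that pair with messenger RNAs mainly through their seed, bases 2 to 8 from the 5′ end, and lower the output of their targets. Some leave cells and persist in plasma, carried in vesicles, lipoproteins or protein complexes. miRNAs made mostly in a given tissue, such as miR-124 in neurons or miR-122 in hepatocytes, are therefore followed in plasma as signs of release from that tissue, while blood cells supply a large share of all plasma miRNA.

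The mature sequences of the 6 miRNAs with the lowest p in the comparison are shown first, since the results below turn on them, followed by those of the tissue markers miR-122-5p (liver) and miR-451-5p (red cells). Capitals mark the seed.
miR-323-3p: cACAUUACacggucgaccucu
miR-434-3p: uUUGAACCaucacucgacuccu
miR-181c-3p: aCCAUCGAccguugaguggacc
miR-129-5p: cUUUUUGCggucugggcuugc
miR-128-3p: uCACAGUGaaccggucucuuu
miR-582-3p: aACCUGUUgaacaacugaaccc
miR-122-5p: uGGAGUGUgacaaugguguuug
miR-451-5p: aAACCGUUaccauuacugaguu
The sequences are from RefSeq (build GRCr8), in which 80 of the 748 tested miRNAs had no entry of the same name and 24 of the 27 followed through every setting were matched. Of these 27, miR-23a-5p, miR-124-3p and miR-429 had no entry. Of the 8 shown, only miR-181c-3p shares its seed with another measured and matched miRNA, miR-181a-1-3p. That miRNA had a log2 fold change of 0.17 (SE 0.26). On chromosome 6 of GRCr8, miR-434-3p lies at 6:134330451-134330472 and miR-323-3p at 6:134546994-134547014, both on the plus strand, within the imprinted Dlk1-Dio3 locus. miR-129-5p and miR-128-3p are each made from a pair of gene copies with the same mature sequence.

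Depth was the sum of the miRNA counts of a rat. It was lowest at 1162307, had a median of 2225678 and was highest at 5223469 in sham rats, against 1807853, 2845345 and 4669149 in TBIN rats. The group ranges overlapped almost fully. The mean was 2445466 ± 1163129 (SD, n = 10) in sham and 2907754 ± 854466 (n = 10) in TBIN rats, a difference of 462289. A two-sided exact permutation test that exchanged rats within sites gave p = 0.28, and also 0.28 after adjustment over the 4 measures tested in this way. Without UEF sham 3, the deepest library, the difference was 770956 (exact permutation p = 0.0366).

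Sham rats had at least 10 counts for 708 ± 29.6 miRNAs (SD, n = 10) and TBIN rats for 729 ± 13.5 (n = 10), a difference of 21.2 (exact permutation p = 0.00857, adjusted over the 4 measures 0.0171). Within UEF, Monash and UCLA the differences were 26.5, 29 and 6.33. With each rat thinned to the lowest total it was 6.9 (exact permutation p = 0.857), and between medians it was 10.5 (exact permutation p = 0.143). With rats exchanged across sites as well, p was 0.0569 by permutation. More miRNAs were thus detected in TBIN plasma as sequenced. Thinning made only the total counts equal: UEF sham 3, in which miR-122-5p took 55.1% of the counts, then had 414 such miRNAs. The other sham rats then had 560 to 713, within the range of the TBIN rats, 537 to 728.

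Averaged over all 20 rats, the most abundant miRNAs were miR-16-5p, with a mean of 16.3% of counts, miR-122-5p with 13.0% and miR-486 with 12.0%. The first and the last are abundant in red cells. This order holds for the pooled mean only. miR-122-5p had a mean of 19.9% in sham rats, the highest of these miRNAs, and of 6.13% in TBIN rats, the lowest of them. UEF sham 3 stood apart: miR-122-5p alone took 55.1% of its counts (95% Wilson interval 55.0 to 55.1%, counting error only), and its TMM factor, by which edgeR scales a library's total, was 0.34. Levels below are in CPM, counts divided by this scaled total and brought to the same round library size in every rat. Because the scaled totals differ from the sequenced ones, the CPM of a library do not add up to a fixed sum, and miR-122-5p reached 1621231 CPM in UEF sham 3.

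Of 748 miRNAs tested with edgeR, 1 (0.134%) differed between TBIN and sham at an adjusted p below 0.05, the p being adjusted over all 748 by the Benjamini-Hochberg method. This was miR-323-3p, which rose in TBIN. Without adjustment, 74 (9.89%) had p below 0.05, of which 39 (5.21%) were higher and 35 (4.68%) lower in TBIN. The median log2 fold change was 0.03, which the TMM scaling holds near 0, and 96.3% of miRNAs lay within 1 on the log2 scale. By direction alone, 410 of the 748 were higher in TBIN, and with median-ratio (RLE) factors in place of TMM 372 were, a balance that the scaling sets and that is not read further. The balance at an unadjusted p below 0.05 turned as well. It was 29 higher and 43 lower with RLE factors, 42 and 54 in DESeq2, and 25 and 51 in edgeR without UEF sham 1. The shares of 5.21% and 4.68%, set beside the lists below, hold for the main fit only. DESeq2 called 6 miRNAs, and edgeR called 3 with upper-quartile factors and 3 with a mean count of at least 100. Without 1 rat, edgeR called 1 to 4, with 4 when Monash sham 3 or UCLA TBIN 3 was left out.

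**Figure D1:**
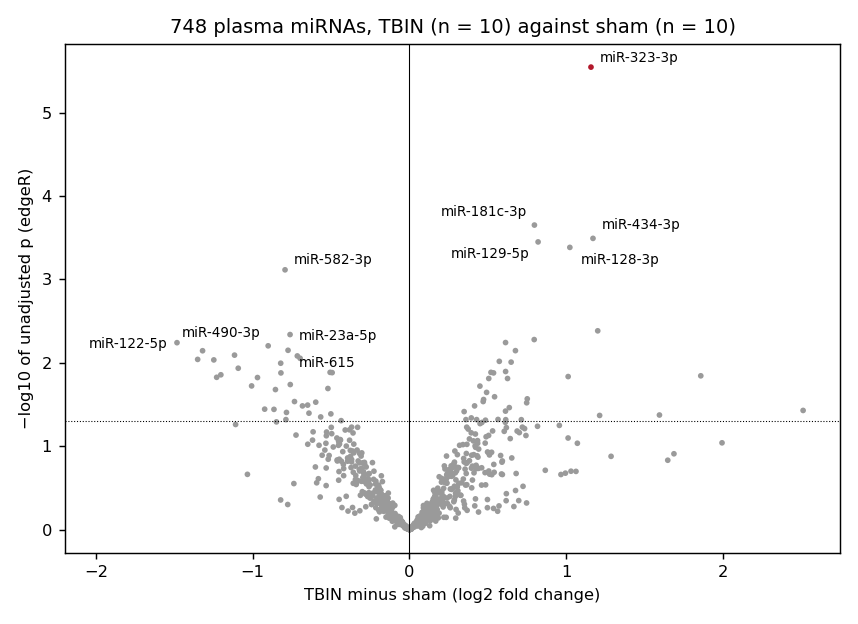
Log2 fold change of each of 748 plasma miRNAs in TBIN over sham rats (10 and 10) against the unadjusted edgeR p on a negative log10 scale. The dotted line marks p = 0.05, and miR-323-3p, in red, stands above all others with a log2 fold change of 1.16.

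miR-323-3p is a miRNA of the imprinted Dlk1-Dio3 locus, whose miRNAs are expressed from the maternal chromosome and are abundant in neurons. In sham rats its level was lowest at 10.1, had a median of 17.2 and was highest at 21.7 CPM, and in TBIN rats it was 18.5, 37.9 and 57.2 CPM. Nearly every injured rat thus had more miR-323-3p than any control: 9 of 10 TBIN rats exceeded the highest sham rat, and 10 of 10 exceeded the sham median of their own site. Only UCLA TBIN 3 lay within the sham range. The means were 16.6 ± 4.28 and 38.0 ± 11.9 CPM (SD, n = 10 each), and the log2 fold change in the fit was 1.16 (SE 0.19), or 2.23-fold (adjusted p = 0.00213 in edgeR). The underlying counts were small, 24 to 62 in sham and 48 to 169 in TBIN libraries.

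The sites are given separately because they differed in husbandry and in plasma composition. At UEF, sham rats had 21.7, 15.2, 18.03 and 10.1 CPM of miR-323-3p and TBIN rats 57.2, 43.1, 46.3 and 48.6 CPM. At Monash they had 21.7, 16.8 and 20.7 CPM against 45.4, 29.6 and 32.7 CPM. At UCLA they had 10.2, 14.0 and 17.7 CPM against 32.6, 26.0 and 18.5 CPM. At each of the 3 sites the lowest TBIN rat was above the highest sham rat, and miR-323-3p was the only 1 of 748 miRNAs (0.134%) of which this was true. On the log2 scale, TBIN exceeded sham by 1.58 (SE 0.29) in the UEF rats, by 0.86 (SE 0.33) in those of Monash and by 0.87 (SE 0.33) in those of UCLA. A difference between these was not detected (edgeR adjusted p of the interaction 0.875).

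The call of miR-323-3p was lost without the UEF rats, within any 1 site and at reduced depth. Without the UEF rats the log2 fold change was 0.83 (adjusted p = 0.770 in edgeR), and with each rat thinned to the lowest total it was 1.17 (adjusted p = 0.0878). With the rats of 1 site alone, it was 1.59 at UEF (adjusted p = 0.0897), 0.82 at Monash (adjusted p = 0.959) and 0.81 at UCLA (adjusted p = 0.469). Over the other settings in which it was tested, leaving out each rat in turn included, the adjusted p ranged from 1.98e-06 to 0.0498. It was not tested with a mean count of at least 100, which its counts do not reach.

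**Figure D2:**
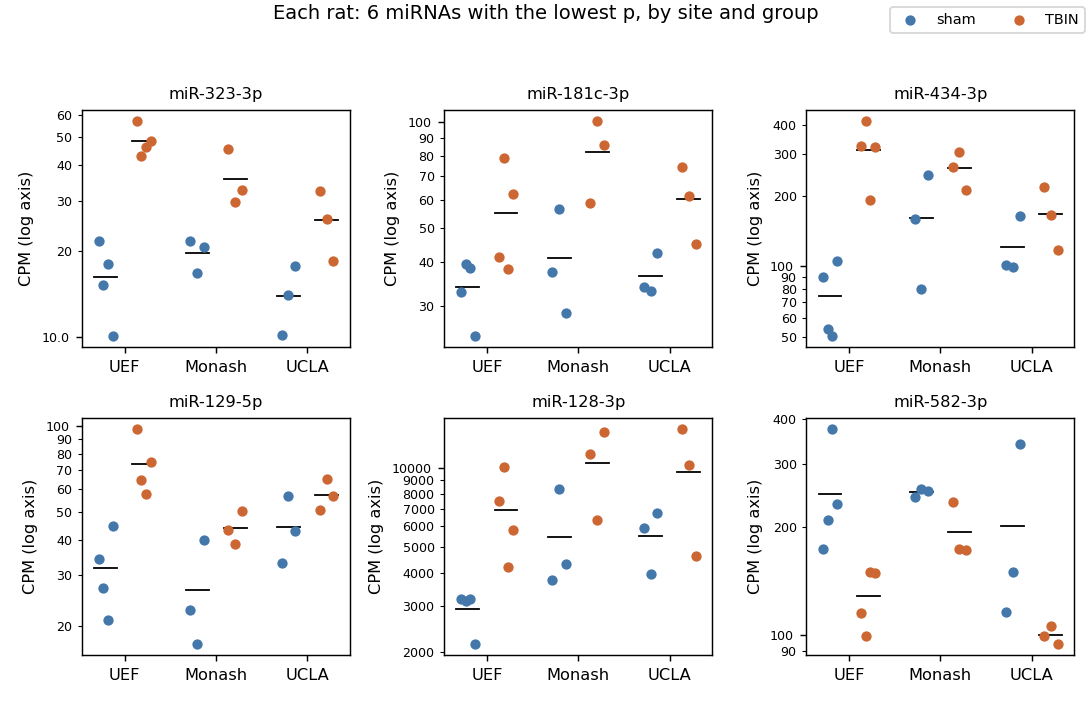
CPM of the 6 miRNAs with the lowest p in each rat, by site, with sham rats in blue and TBIN rats in orange; short lines are means and the axes are logarithmic. For miR-323-3p the TBIN rats lie above the sham rats at every site, and for miR-582-3p below them.

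The next 4 miRNAs by p were also higher in TBIN, each with an edgeR adjusted p of 0.0618, so that none of them passed the test. miR-434-3p lies in the same imprinted locus as miR-323-3p. It had 50.2, 99.9 and 244 CPM (lowest, median and highest) in sham and 117, 242 and 417 CPM in TBIN rats, with a log2 fold change of 1.17 (SE 0.28). All 10 TBIN rats were above the sham median of their site, but the groups overlapped at Monash and UCLA. Within the sites it was 2.07 (UEF), 0.71 (Monash) and 0.46 (UCLA), and the edgeR adjusted p of the interaction was 0.503.

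miR-128-3p, a miRNA enriched in neurons, was by far the most abundant of the group. It had 2140, 3844 and 8348 CPM in sham and 4189, 8816 and 14133 CPM in TBIN rats, and a log2 fold change of 1.02 (SE 0.25). In 9 of 10 TBIN rats it exceeded the sham median of the site, and at UEF the groups did not overlap. By site the log2 fold change was 1.25, 0.94 and 0.80 at UEF, Monash and UCLA.

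miR-129-5p, likewise enriched in brain, had 17.2, 33.7 and 56.9 CPM in sham and 38.7, 57.3 and 97.8 CPM in TBIN rats, and a log2 fold change of 0.82 (SE 0.20). It was above the site's sham median in 10 of 10 TBIN rats, and by site the log2 fold change was 1.21, 0.74 and 0.38. miR-181c-3p is the less abundant arm of a miRNA expressed in brain and in lymphocytes. It had 24.6, 35.6 and 56.6 CPM in sham and 38.2, 61.9 and 101 CPM in TBIN rats, with a log2 fold change of 0.80 (SE 0.18). It was the most even across sites, at 0.71, 0.99 and 0.72, and 10 of 10 TBIN rats were above the site's sham median. DESeq2 called these 4 miRNAs, at adjusted p of 0.00588 for miR-128-3p, 0.0041 for miR-129-5p and miR-434-3p, and 0.00665 for miR-181c-3p. edgeR called miR-128-3p and miR-181c-3p with upper-quartile factors (adjusted p = 0.0438 and 0.0373) and with a mean count of at least 100 (adjusted p = 0.0261 for each). Over all settings, single sites included, their adjusted p reached 0.995, 0.959, 0.986 and 0.973 in the same order, and the direction was the same in each of 39 settings. Without 1 rat, edgeR called miR-434-3p, miR-128-3p and miR-181c-3p when UCLA TBIN 3 was left out, miR-434-3p and miR-129-5p without Monash sham 3, miR-128-3p and miR-181c-3p without Monash sham 2, and 1 of the 4 without UEF TBIN 3, UCLA sham 2 or UCLA sham 3.

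In the other direction the lowest p belonged to miR-582-3p, made from an intron of the gene Pde4d. It had 116, 237 and 375.9 CPM in sham and 94.3, 132.2 and 234 CPM in TBIN rats, with a log2 fold change of -0.79 (SE 0.20, adjusted p = 0.0956 in edgeR, lower than the site's sham median in 10 of 10 TBIN rats). At each of the 3 sites its highest TBIN rat lay below its lowest sham rat, the only 1 of 748 miRNAs (0.134%) of which this was true. Levels differed between sites, so pooled over all 20 rats the groups overlapped. Over all 20 rats 0 of 748 miRNAs (0%) separated the groups in either direction. Within UEF, Monash and UCLA the log2 fold changes of miR-582-3p were -0.95, -0.37 and -1.02, and it was called by DESeq2 (-0.84, adjusted p = 0.00665) and by edgeR with a mean count of at least 100 (-0.82, adjusted p = 0.0267). In other settings its adjusted p reached 0.995.

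The other miRNAs with the lowest p among those lower in TBIN were miR-23a-5p, miR-122-5p, miR-490-3p and miR-615, with edgeR adjusted p of 0.312 each. Their log2 fold changes were -0.76, -1.48, -0.90 and -0.77, and 8, 8, 9 and 9 of 10 TBIN rats were below the sham median of the site. Without UEF sham 3, miR-490-3p had -0.57. All were widest apart at UEF, where the log2 fold changes were -1.36, -2.66, -1.45 and -1.09, against 0.09, -0.21, -0.26 and -0.43 at UCLA. In a test of whether the TBIN effect differed between sites, edgeR called 0 of 753 miRNAs (0%), with 50 at an unadjusted p below 0.05, and DESeq2 called 0. Without UCLA sham 3, edgeR called 2.

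**Figure D3:**
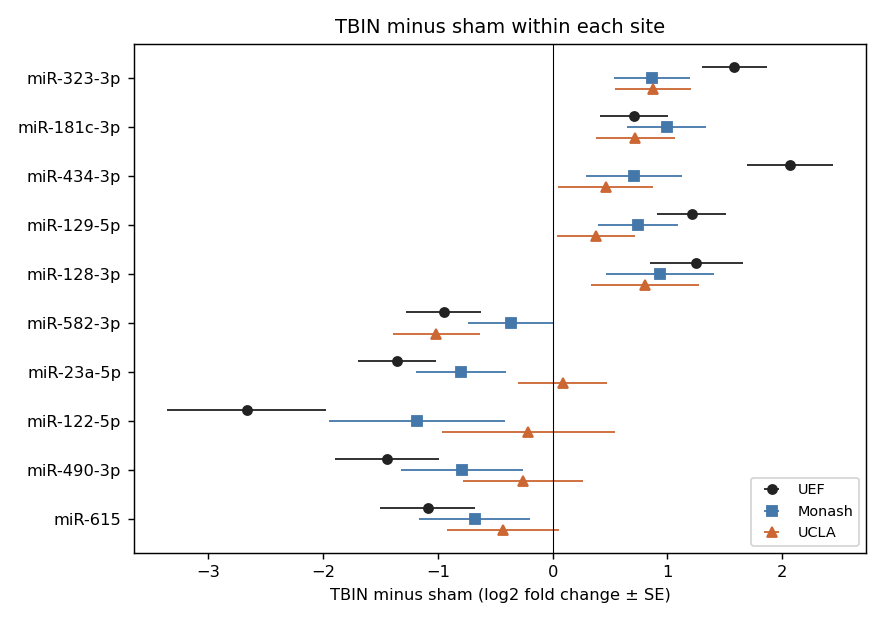
Log2 fold change of TBIN over sham within each site (points, with bars of 1 SE) for the 5 miRNAs with the lowest p in each direction. UEF (4 and 4 rats) has the largest values for most of them, such as 2.07 for miR-434-3p and -2.66 for miR-122-5p, while miR-181c-3p is nearly even.

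The study took 7 miRNAs to droplet digital PCR, chosen in part from these samples, so their direction here is not independent evidence. Besides miR-323-3p and miR-434-3p they were miR-9a-3p, miR-183-5p, miR-212-3p, miR-124-3p and miR-132-3p, and none of these 5 passed the test in edgeR. miR-183-5p, a miRNA of sensory organs, had 117, 241 and 646 CPM in sham and 225, 519 and 1729 CPM in TBIN rats (log2 fold change 1.20, SE 0.38, adjusted p = 0.312 in edgeR, above the site's sham median in 9 of 10). Within UEF, Monash and UCLA the log2 fold changes were 1.15, 1.67 and 0.80. miR-9a-3p, abundant in neural progenitors and neurons, had a log2 fold change of 0.61 (SE 0.23, adjusted p = 0.312 in edgeR) and was above the site's sham median in 10 of 10 TBIN rats. Without Monash sham 3, edgeR called it (0.87, adjusted p = 0.0178).

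miR-124-3p, the most neuron-specific of these, was at 15.9, 29.9 and 52.2 CPM in sham and 18.7, 40.8 and 62.1 CPM in TBIN rats, so the groups overlapped widely. Its log2 fold change was 0.37 (SE 0.18, adjusted p = 0.514 in edgeR, 8 of 10 TBIN rats above the site's sham median). miR-212-3p and miR-132-3p are made from 1 transcript that neuronal activity induces, and they share the seed AACAGUC. Their full sequences differ only after the seed.
miR-132-3p: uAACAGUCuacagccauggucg
miR-212-3p: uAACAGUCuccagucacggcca
Their log2 fold changes were 0.25 (SE 0.19, adjusted p = 0.667 in edgeR) and -0.11 (SE 0.18, adjusted p = 0.885 in edgeR), with 10 and 4 of 10 TBIN rats above the site's sham median. The pair with a shared seed and transcript thus did not lie on the same side of 0. Without 1 rat, miR-132-3p had 0.09 to 0.36, lowest without Monash TBIN 2, and miR-212-3p -0.20 to -0.05. The sign of miR-212-3p turned without the Monash rats (0.11), and that of miR-132-3p in the UCLA rats alone (-0.05).

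Lists of miRNAs by tissue were described next, by counts and medians, beside the median of 0.03 over all 748 miRNAs. Counts in cell-free plasma are relative, and release from fewer cells of a type and less miRNA released per cell cannot be told apart in them. Of 34 brain-enriched miRNAs, 27 were higher and 7 lower in TBIN, with a median log2 fold change of 0.22. An unadjusted p below 0.05 was reached by 4 of the higher ones (miR-128-3p, miR-129-5p, miR-129-3p and miR-9a-3p) and by 1 lower one (miR-218a-1-3p, -0.64, or -0.31 without UCLA sham 3), beside 5.21% higher and 4.68% lower of all miRNAs. In edgeR 0 passed the adjusted test, and DESeq2 called 2, miR-128-3p and miR-129-5p. Within UEF, Monash and UCLA the list medians were 0.32, 0.26 and 0.16, and without Monash TBIN 2 the median over all sites was 0.12. Summed over the list, the level was 3566, 4990 and 9271 CPM (lowest, median and highest) in sham and 5563, 10305 and 15529 CPM in TBIN rats, most of it miR-128-3p.

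The imprinted Dlk1-Dio3 list had 84 tested members of 85 in the table. In TBIN 59 were higher and 25 lower (51 and 33 with RLE factors), and the median log2 fold change was 0.10. miR-323-3p was the 1 member to pass the adjusted test in edgeR, and DESeq2 called it and miR-434-3p. At an unadjusted p below 0.05, 7 were higher and 1 lower with all 20 rats, a share close to the 9.89% of all miRNAs. These counts depended on single rats. They were 2 and 2 without UEF sham 1 (25 and 51 of all miRNAs), and 3 and 1 without UEF sham 2 (26 and 32 of all). The median moved with single rats: it was 0.04 without UEF sham 3 (47 higher and 37 lower), 0.05 without UEF TBIN 1 (46 and 38), 0.06 without UEF sham 2 or Monash sham 2, 0.07 without Monash TBIN 2 and 0.17 without UEF sham 4. After thinning to the lowest total it was 0.05 (46 and 35). Besides miR-323-3p and miR-434-3p, the higher ones included miR-379-3p, the most abundant member, with a log2 fold change of 0.75 (adjusted p = 0.447 in edgeR, above the site's sham median in 8 of 10 TBIN rats). The list medians within UEF, Monash and UCLA were 0.24, 0.00 and -0.08, so beyond UEF the locus as a list did not lie to 1 side. Its summed level overlapped widely, at 2323, 3161 and 3858 CPM in sham and 2938, 3688 and 5299 CPM in TBIN rats.

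**Figure D4:**
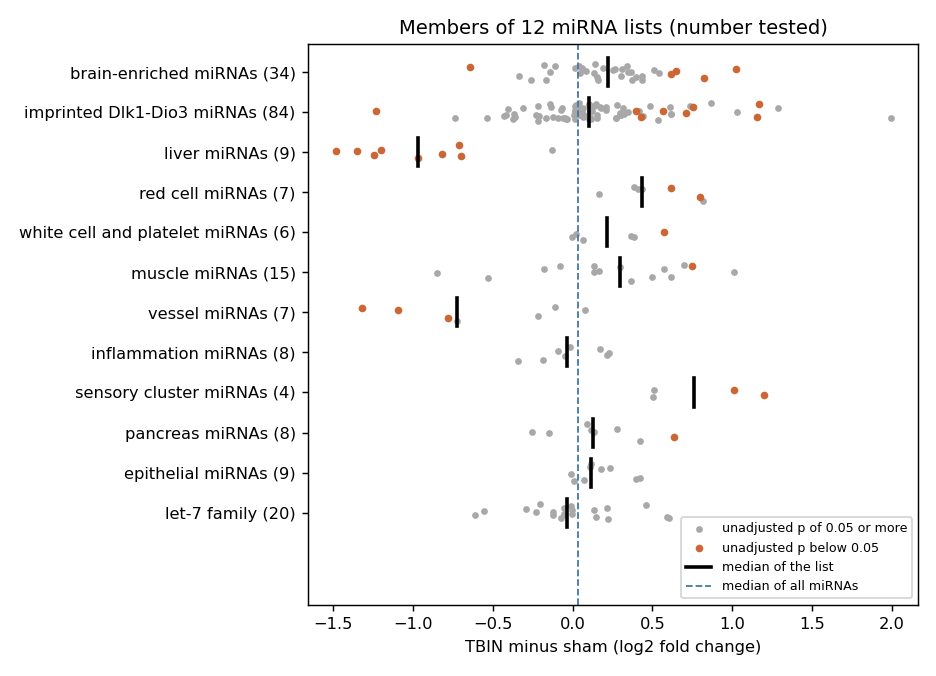
Log2 fold change of TBIN over sham for each member of 12 lists of miRNAs, with the number tested in brackets. Orange points had an unadjusted p below 0.05, black bars are list medians and the dashed line is the median of all miRNAs, 0.03. All 9 liver miRNAs lie below 0, with a median of -0.97, and all 7 red cell miRNAs above 0, with a median of 0.44.

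Liver miRNAs were the list farthest from the overall median. All 9 were lower in TBIN, 8 of them at an unadjusted p below 0.05 (4.68% of all miRNAs were lower at this p). The median log2 fold change was -0.97, but 0 passed the adjusted test of edgeR and none was called by DESeq2. The 9 are not independent of each other. They are miR-122-5p, miR-122-3p and miR-3591, which lies opposite miR-122, and both arms of miR-192, miR-194 and miR-802. The list was summed to 15585, 135705 and 1731395 CPM in sham and 10024, 32708 and 271831 CPM in TBIN rats, and 0 of its members had a count of 0 in any rat. In every rat most of this was miR-122-5p, the main hepatocyte miRNA, at 12085, 122987 and 1621231 CPM in sham and 5849, 27231 and 246820 CPM in TBIN rats. miR-192-5p and miR-194-5p, also found in gut and kidney, had log2 fold changes of -0.97 and -1.20 (-0.66 and -0.79 without UEF sham 3).

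The share of counts taken by miR-122-5p, tested apart from the fit, was 1.76, 11.3 and 55.1% (lowest, median and highest) in sham and 0.63, 3.47 and 22.6% in TBIN rats. The mean was 19.9 ± 19.1% (SD, n = 10) and 6.13 ± 7.16% (n = 10), a difference of -13.8 percentage points (two-sided exact permutation p = 0.000286, adjusted over the 4 measures 0.00114). Most of the spread lay between sites: the sham means of UEF, Monash and UCLA were 40.3%, 10.6% and 2.09%. The difference was -29.3 points at UEF (exact permutation p = 0.0286), -6.27 at Monash (exact permutation p = 0.1) and -0.65 at UCLA (exact permutation p = 0.4). With 4 and 4 rats 0.0286 is the smallest p possible, and with 3 and 3 rats it is 0.1. The sham and TBIN rats did not overlap at UEF or Monash and did at UCLA.

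The liver difference in the fit followed the same order, with list medians of -1.88, -0.65 and -0.09 in UEF, Monash and UCLA rats. Without the UEF rats the median was -0.41, with 0 of 9 at an unadjusted p below 0.05 in edgeR. Without UEF sham 3 it was -0.66, and 8 of 9 members were lower. With the ratio of miR-451-5p to miR-23a-3p, described below, in the model it was -0.82, with 1 higher, 8 lower and 3 at an unadjusted p below 0.05.

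In a fit without the 3 most abundant miRNAs, miR-122-5p among them, 27 miRNAs were higher and 43 lower at an unadjusted p below 0.05, of 745 tested. miR-323-3p had a log2 fold change of 1.12 (adjusted p = 0.00476 in edgeR), and the Dlk1-Dio3 median was 0.06, with 51 higher and 33 lower. Without UEF sham 3, miR-323-3p had 1.14 (adjusted p = 0.0109 in edgeR).

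Red cell miRNAs lay on the other side. All 7 were higher in TBIN, 2 at an unadjusted p below 0.05 (5.21% of all miRNAs were higher at this p), with a median log2 fold change of 0.44, and 0 passed the adjusted test of edgeR or DESeq2. Their summed level was 126425, 204900 and 451359 CPM in sham and 199755, 294209 and 621372 CPM in TBIN rats, with miR-16-5p the most abundant (0.41, SE 0.26). miR-486 had a log2 fold change of 0.80 and miR-451-5p, the most specific to red cells, 0.82 (SE 0.41, adjusted p = 0.514 in edgeR, above the site's sham median in 9 of 10 TBIN rats). Without UEF TBIN 2, miR-16-5p had 0.14 and miR-451-5p 0.41. In UEF, Monash and UCLA rats the list medians were 0.71, -0.08 and 0.53, and over all sites the median was 0.28 without UEF TBIN 2 and 0.20 without the UEF rats.

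The log2 ratio of miR-451-5p to miR-23a-3p, a measure of hemolysis that the study used on PCR values, was taken here from counts, on which no limit for hemolysis is set. It was -3.57, -2.90 and -1.33 (lowest, median and highest) in sham and -2.88, -2.22 and -0.87 in TBIN rats. The means were -2.86 ± 0.62 (SD, n = 10) and -2.05 ± 0.64 (n = 10), a difference of 0.81 (two-sided exact permutation p = 0.0149, adjusted over the 4 measures 0.0199). It was 1.22 at UEF (exact permutation p = 0.0286), -0.09 at Monash (exact permutation p = 0.9) and 1.15 at UCLA (exact permutation p = 0.1). Without the UEF rats the difference was 0.53 (exact permutation p = 0.26) and without the UCLA rats 0.66 (exact permutation p = 0.111). The groups did not overlap at UEF and UCLA and did at Monash, and a difference between the sites in this ratio was not tested.

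A fit with this ratio, called the red cell ratio below, as a further covariate had 21 miRNAs higher and 8 lower at an unadjusted p below 0.05, of 753 tested, and miR-323-3p alone was called in edgeR (1.17, adjusted p = 0.0498, against 0.00213 without the covariate). The red cell list cannot be read in that fit, since miR-451-5p is in the ratio. Of the other lists, pancreas miRNAs had a median of 0.22 in that fit, epithelial ones 0.08, inflammation ones -0.09 and let-7 miRNAs 0.02 (10 higher and 10 lower). Brain-enriched miRNAs had 0.20 (24 higher and 10 lower) and Dlk1-Dio3 ones 0.12 (59 and 26). The sensory cluster had 1.03 over 5 members, and 1.08 over the 4 tested in the main fit. The values for vessels, muscle and white cells stand with those lists.

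The reference miRNAs of the study had log2 fold changes of -0.11 (miR-28-3p, SE 0.24, adjusted p = 0.906 in edgeR) and -0.10 (miR-23a-3p, SE 0.24, adjusted p = 0.930 in edgeR). Both turned sign without UEF sham 3, to 0.12 and 0.03. With 7 and 5 of 10 TBIN rats above the sham median of the site, neither leaned clearly to 1 side.

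**Figure D5:**
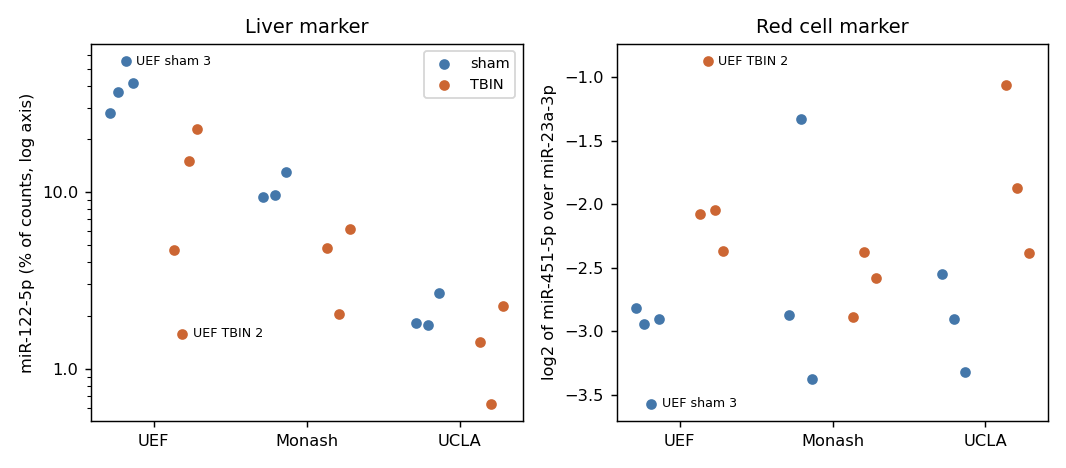
Share of counts taken by the liver miRNA miR-122-5p (left, percent on a log axis) and log2 ratio of miR-451-5p to miR-23a-3p (right) in each rat, by site and group, sham in blue and TBIN in orange. UEF sham 3 holds the highest liver share, 55.1%, and UEF TBIN 2 the highest ratio, -0.87.

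Vessel miRNAs had a median log2 fold change of -0.72, with 6 of 7 lower and 3 of these at an unadjusted p below 0.05, beside 4.68% of all miRNAs. The 3 were miR-143-3p, miR-143-5p and miR-145-3p, of smooth muscle. miR-143-3p, the most abundant, had 3247, 9285 and 89828 CPM in sham and 1049, 6805 and 25222 CPM in TBIN rats (log2 fold change -1.32, SE 0.45, adjusted p = 0.312 in edgeR, below the site's sham median in 9 of 10). In UEF, Monash and UCLA rats the list medians were -0.89, -0.25 and -0.96, and without UEF sham 3 the median over all sites was -0.43. With the red cell ratio in the model it was -0.39, with 7 of 7 lower and 0 at an unadjusted p below 0.05 in edgeR.

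The 4 tested members of the sensory cluster of miR-183, miR-96 and miR-182 were all higher in TBIN, with a median log2 fold change of 0.76. miR-183-5p and miR-96-5p (1.01, or 0.59 without Monash TBIN 2) had an unadjusted p below 0.05, as had 5.21% of all miRNAs in this direction. By site the median was 0.59, 1.36 and 0.53 at UEF, Monash and UCLA, with miR-182 lower at UCLA (-0.23). Without 1 rat the median of these 4 was 0.57 to 0.96. A further member, miR-96-3p, was tested only in some settings, and without the abundance filter the median of 5 was 0.51.

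The direction of the muscle miRNAs depended on single rats and on the model. The median of 15 was 0.30, with 11 higher and 4 lower and 1 of the higher ones at an unadjusted p below 0.05 (5.21% of all miRNAs), but without UEF TBIN 2 it was -0.44 and without Monash TBIN 1 it was -0.02. Without 1 of the other rats it was 0.09 to 0.49. With replicate numbers as a block it was -0.10 (6 higher and 9 lower), with the red cell ratio in the model -0.09 (5 and 10) and without the UEF rats -0.03 (6 and 9). The joint entry of miR-133a-3p and miR-133b-3p, a pair of miRNAs of skeletal and heart muscle, had 119, 549 and 8892 CPM in sham and 100, 399 and 31296 CPM in TBIN rats, the highest being UEF TBIN 2. Its log2 fold change was 0.30 (SE 0.83, adjusted p = 0.938 in edgeR, 2 of 10 TBIN rats above the site's sham median) and it was -1.25 without that rat and -0.09 without Monash TBIN 1. The pancreas list, with a median of 0.13 (6 higher and 2 lower; 0.07 without UEF sham 3, 0.20 without Monash TBIN 3 or UCLA TBIN 1, and -0.01 without the UEF rats), held another value of the same rat: miR-375-3p of islet cells was at 5701 CPM in it and at 626 to 2009 CPM in the other TBIN rats. The log2 fold change of miR-375-3p was 0.64 (SE 0.28, adjusted p = 0.477 in edgeR, 7 of 10 above the site's sham median) and 0.36 without that rat.

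The remaining lists were those of white cells and platelets, inflammation, epithelium and the let-7 family. White cell and platelet miRNAs had a median of 0.22, with 5 higher and 1 lower (4 and 2 with RLE factors), and 0.14 without UCLA sham 2 or UCLA sham 3. The median was 0.06 with the red cell ratio in the model, and 0.10, with 3 higher and 3 lower, without the UCLA rats. Their most abundant member over both groups together, miR-223-3p of myeloid cells, had a log2 fold change of 0.37 (SE 0.21, adjusted p = 0.560 in edgeR), with 5 of 10 TBIN rats above the site's sham median, and 0.22 without UEF TBIN 2. In sham rats alone miR-150-5p had the higher mean, 30450 against 28873 CPM. Inflammation miRNAs had a median of -0.03 over 8 members, 3 higher and 5 lower, and miR-146a-5p, which inflammatory signalling induces, had -0.05 (SE 0.20, adjusted p = 0.95 in edgeR, 5 of 10 above the site's sham median). That median turned above 0 without any 1 of UEF sham 1, UEF TBIN 4, Monash sham 3, Monash TBIN 1, UCLA sham 3, UCLA TBIN 1 and UCLA TBIN 3, reaching 0.09, and miR-146a-5p did so without UEF sham 3 (0.01) or UCLA TBIN 3. An inflammatory miRNA difference at 48 h was not detected at this depth and group size.

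The 9 epithelial miRNAs had a median of 0.12, 8 higher and 1 lower (7 and 2 with RLE factors), and by site 0.02, 0.37 and -0.23 at UEF, Monash and UCLA. The direction turned without Monash TBIN 2 (-0.04, 4 higher and 5 lower), and without 1 of the other rats the median was 0.05 to 0.24. miR-429 had 0.42 (SE 0.31, adjusted p = 0.658 in edgeR, 7 of 10), and 0.17 without Monash TBIN 2. The 20 members of the let-7 family had a median of -0.03, 7 higher and 13 lower. These counts reversed to 13 and 7 without UEF sham 3 (median 0.06), and without the UEF rats they were 12 and 8 (0.12). let-7c-5p had -0.23 (SE 0.30, adjusted p = 0.880 in edgeR, 4 of 10), and -0.02 without UEF sham 3.

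To ask whether any of this was particular to injury without epilepsy, TBIN was tested against TBIE in a fit of all 29 rats. edgeR called 0 of 751 miRNAs (0%), with 18 at an unadjusted p below 0.05, and DESeq2 called 0. Nothing above can therefore be called particular to the rats that did not develop epilepsy. In the same fit, TBIE against sham gave 4 of 751 (0.533%), and DESeq2 gave 12. Both comparisons use the same sham rats, so their values are set side by side without reading their likeness.

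For miR-323-3p that fit gave a log2 fold change of 1.14 (SE 0.22) in TBIN over sham and 1.28 (SE 0.22, adjusted p = 0.00199 in edgeR) in TBIE over sham, and TBIN minus TBIE was -0.14 (SE 0.22). TBIE rats had 17.6, 36.3 and 91.3 CPM of it (lowest, median and highest), a range that holds that of the TBIN rats. For miR-434-3p the values against sham were 1.10 in TBIN and 1.28 in TBIE (adjusted p = 0.0435 in edgeR), and for miR-129-5p 0.78 and 1.09 (adjusted p = 0.0191 in edgeR). miR-615 had -0.79 in TBIN and -1.21 in TBIE (adjusted p = 0.0342 in edgeR). These 4 miRNAs were those that edgeR called in TBIE, and of them it called only miR-323-3p in TBIN. Without 1 rat, edgeR called 1 to 7 in TBIE.

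Among the named miRNAs the values of the injured groups lay farthest apart for miR-375-3p and miR-143-3p, with TBIN minus TBIE at 0.71 (SE 0.29) and -0.69 (SE 0.47), and for miR-582-3p, at -0.63 (SE 0.25). Against sham, miR-582-3p had -0.83 in TBIN and -0.20 in TBIE in this fit. TBIE rats had 106, 160 and 805 CPM of it, the highest being Monash TBIE 1, and the edgeR adjusted p of TBIN against TBIE was 0.998.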

How the data were processed

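Small RNA of plasma was sequenced by the authors, and counts were available for 29 rats, 1 library per rat. A further sequenced rat had been excluded by the authors because its video-EEG recording was short. The 20 TBIN and sham rats were compared. The deposited table holds a count of each of 754 miRNAs per rat as whole numbers without normalization. Adapters were removed by the authors (cutadapt) before bowtie alignment on Rnor_6.0 and miRBase annotation, and whether reads with the same molecular identifier were merged is not stated. The table's miR-451-5p is miR-451a.

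The fits ran in R 4.3.3 with limma 3.58.1 and edgeR 4.0.16. Low counts were removed by filterByExpr (minimum 10), libraries were scaled by TMM, and the model of site and group was tested by quasi-likelihood F. Calls used a threshold of 0.05 on p adjusted by Benjamini-Hochberg over all miRNAs tested. CPM carry no prior count, and those of TBIE rats come from the scaling of all 29 rats. The fits of TBIN against TBIE and of TBIE against sham used all 29 rats. The biological coefficient of variation was 0.452. Depth, detected miRNAs (10 counts or more), the red cell ratio and the miR-122-5p share were compared by two-sided exact permutation of the mean over all 28000 regroupings within sites. The code was checked on simulated data. Python 3.11.15, numpy 2.4.6, pandas 2.3.3 and matplotlib 3.10.9 were also used.

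The miRNAs named are the 5 with the lowest p in each direction, the 7 that the study took to PCR, its reference and hemolysis miRNAs, and the most abundant member of each list, and others were chosen after their values were seen. Abundance was taken over both groups together. In sham rats alone miR-21-5p, miR-206-3p and miR-150-5p had higher means than miR-146a-5p, miR-133a-3p and miR-223-3p of the same lists. The 12 lists join miRNAs by family (brain, imprinted Dlk1-Dio3, liver, red cell, white cell and platelet, muscle, vessel, inflammation, sensory cluster, pancreas, epithelium, let-7). Both arms of a miRNA count as separate members, so the members of a list are not independent. Members and lists were chosen with earlier results of these data known. Alternatives were DESeq2 1.42.0, RLE and upper-quartile factors, other count filters, thinning, all 29 rats, no site term, the red cell ratio as covariate, a replicate block, no top 3 miRNAs, and leaving out each site and each rat.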

Additional observations from a re-analysis of the deposited data

Results flagged for a closer look

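In each group of 4 to 10 rats, the highest or lowest value was set apart where Dixon's test found it too distant from the next rat for the group's range. This set apart 23 values, or 18.5% of the groups looked at. A rate of about 1 in 20 groups by chance holds for normally distributed values of 1 population. CPM were taken without logarithms and also pooled over sites with different levels, so the 18.5% is not read against that rate. The groups overlap, since a site's rats are also in the pooled group. Most of the values belong to a few rats.

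UEF sham 3 stood apart for miR-122-5p (1621231 CPM, the next sham rat 443836), among all sham rats and among those of UEF, and among all sham rats for miR-490-3p (253 CPM), miR-143-3p (89828 CPM), miR-28-3p (1435 CPM) and its total miRNA count (5223469). UEF TBIN 2 stood apart for miR-375-3p (5701 CPM) among all TBIN rats, for miR-451-5p (7351 CPM) and miR-133a-3p, an entry shared with miR-133b-3p (31296 CPM), among all TBIN rats and those of UEF, and among those of UEF for miR-223-3p (48811 CPM) and miR-16-5p (390496 CPM). Monash sham 2 stood apart among sham rats for miR-379-3p (1003 CPM), miR-451-5p (4447 CPM), miR-16-5p (291586 CPM) and the log2 ratio of miR-451-5p to miR-23a-3p (-1.33). UEF sham 4 stood apart at its site for miR-128-3p (2140 CPM), miR-223-3p (18883 CPM) and miR-133a-3p (8880 CPM). The others were UEF TBIN 4 for miR-122-5p (246820 CPM), Monash TBIN 3 for miR-143-3p (25222 CPM) and Monash TBIN 2 for miR-132-3p (109 CPM), each among all TBIN rats. With UEF sham 3 and UEF TBIN 2 both left out, an alternative chosen after seeing the data, miR-323-3p had a log2 fold change of 1.15 (edgeR adjusted p = 0.0159) and was the 1 miRNA called.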

How the results depend on the processing

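The number of miRNAs called between TBIN and sham was 1 in edgeR and 6 by DESeq2, 3 with upper-quartile factors, 3 with a mean count of at least 100, 0 after thinning, 0 without the UEF rats, and 0 in UEF, Monash or UCLA rats alone (55, 45, 64, 31 and 75 at an unadjusted edgeR p below 0.05). DESeq2 was not run for these 5. Leaving out 1 rat gave 1 to 4: 2 without UEF TBIN 3, UCLA sham 2 or UCLA sham 3, 3 without Monash sham 2, and 4 without Monash sham 3 or UCLA TBIN 3. The log2 fold change of miR-323-3p was 1.06 to 1.22 in these (adjusted p 0.0011 to 0.0159). The effect by site gave 0 to 2 miRNAs, 2 without UCLA sham 3. TBIN against TBIE gave 0 to 0. TBIE against sham gave 4, 12 by DESeq2, and 1 to 7 without 1 rat: 1 without UEF sham 1, 2 or 3 or UEF TBIE 2, 2 without UEF sham 4, UEF TBIE 3 or 4, UCLA sham 2, UCLA TBIN 1 or UCLA TBIE 1 or 3, and 7 without Monash sham 2. The causes were not tested.

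Replicate numbers do not pair the rats: over 10 pairs of equal site and number, residuals of the groups correlated at -0.46 to 0.148. For 2 of 10 sham rats, the closest TBIN rat of the site was that of their number. With this block the calls were 1 between TBIN and sham (miR-323-3p, 1.17, adjusted p = 0.0268), 0 between TBIN and TBIE (10 at an unadjusted p below 0.05) and 3 between TBIE and sham, and the sign of miR-133a-3p turned (-0.53).

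The difference in total miRNA count had p = 0.0406 without the 3 largest miRNAs (456813) and ranged from 266578 to 770956 without 1 rat. That in detected miRNAs ranged from 15.6 to 24.4 without 1 rat and lost its call between medians (10.5, p = 0.143), with rats exchanged across sites (21.2, p = 0.0569) and after thinning (6.9, p = 0.857). That in the log2 ratio lost it without UEF (0.53) and without UCLA (0.66) and was 0.67 to 0.98 without 1 rat. That in the miR-122-5p share was -15.8 to -9.91 without 1 rat, and kept p below 0.05 in each alternative run. All p are from permutation tests.

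Signs turned for miRNAs that had not passed the test. With the red cell ratio in the model, miR-451-5p, itself part of the ratio, had -0.16, miR-16-5p -0.12 and miR-133a-3p -1.31. The last, an entry shared with miR-133b-3p, had -0.013 at a mean count of at least 100, -0.50 without UEF, -1.28 without UEF sham 3 and UEF TBIN 2 (chosen after seeing the data), and -1.25 to 0.77 without 1 rat (-1.25 without UEF TBIN 2, -0.09 without Monash TBIN 1). Without UEF, miR-28-3p had 0.16 and miR-146a-5p 0.0028. Without Monash, miR-212-3p had 0.11, and in UEF alone 0.15. In Monash alone, miR-451-5p had -0.41, miR-16-5p -0.11, miR-28-3p 0.13, miR-23a-3p 0.10 and miR-133a-3p -0.28. In UCLA alone, miR-23a-5p had 0.021, miR-379-3p -0.043, miR-429 -0.036, miR-132-3p -0.054, miR-28-3p 0.15 and miR-133a-3p -0.74. Without UEF sham 3, miR-28-3p had 0.12, miR-23a-3p 0.030 and miR-146a-5p 0.0072, and miR-28-3p had 0.10 also without UEF TBIN 2. Without 1 rat, miR-28-3p ranged from -0.23 to 0.12, miR-23a-3p from -0.21 to 0.03 and miR-146a-5p from -0.15 to 0.01 (0.0011 without UCLA TBIN 3). The causes were not tested. Few counts limit miR-323-3p, with 24 in the lowest library.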
